A study of Mus musculus with 48 samples.

Results

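Ovariectomy in XX mice was examined in 12 of the 48 liver RNA-seq libraries of the series, 6 from XX mice with intact gonads (Intact_XX) and 6 from gonadectomized XX mice (GDX_XX), taken by their genotype and treatment labels. The animals were FCG mice on a C57BL/6 background. Their Y chromosome (Y-) has no Sry, and testes form only in mice that inherit an Sry transgene (SryTg), whichever sex chromosomes they carry. XX mice carried neither a Y chromosome nor the transgene and had ovaries. All mice started a high-fat diet (HFD, 60% of calories from fat) at an age of 15 to 17 weeks. Per the labels, GDX_XX mice lost their ovaries at 75 days of age and ate the HFD for 15 weeks, and Intact_XX mice had no surgery and ate it for 11 weeks. The methods text gives the diet as 16 and 10 weeks, surgery at 10 to 11 weeks of age, and a fast of 6 h before sacrifice. No sham operation is described in the sources used here. Loss of the ovaries, surgery, diet length and age at sacrifice therefore changed together between the arms and cannot be told apart. Each value below rests on 1 liver per mouse. The XX effect was also set against the same design in XX;SryTg mice, which carry the transgene and have testes (6 intact and 6 castrated). A further comparison was with XY- mice, whose Y chromosome lacks Sry and which have ovaries (6 intact and 6 ovariectomized). Intact XY- mice also gave a reference level for Y-linked genes. Together with 6 intact XY-;SryTg mice, which have testes and ate the HFD for 11 weeks, they served to choose gonad-associated genes. All 48 libraries entered the fit.

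Ovaries are the main source of circulating estradiol and progesterone in female mice. Estradiol acts in liver through estrogen receptor alpha, and the gonads also set the sex-specific pattern of pituitary growth hormone release, which reaches hepatocytes through the growth hormone receptor, JAK2 and STAT5. Female-biased liver genes include cytochromes P450 of the Cyp2a, Cyp2b, Cyp2c and Cyp3a families and steroid sulfotransferases, while several repressors, among them BCL6 and CUX2, take part in keeping male- and female-biased programs apart. In mice, loss of ovaries is widely used as a model of the metabolic state after menopause.

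Reads assigned to genes numbered 16642576 to 19406840 per library in Intact_XX mice and 14948842 to 17418223 in GDX_XX mice, so that 3 reads, the level below which a gene was treated as not detected, equalled 0.15 to 0.243 CPM (counts scaled to equal library size, here with the trimmed mean of M values, TMM) in Intact_XX and 0.172 to 0.197 CPM in GDX_XX mice. This floor covers counting error only, since the reads carry no molecular identifiers. Xist, the RNA made from the inactive X chromosome, was at 166 to 818 CPM in Intact_XX and 989 to 1170 CPM in GDX_XX livers. Of the genes on the Y chromosome, Ddx3y, Eif2s3y, Kdm5d and Uty stayed at or below 0.365 CPM in all 12 libraries, against a Ddx3y level of 54.4 to 66.3 CPM in intact XY- mice. Among the XX;SryTg mice used for comparison, Ddx3y reached 4.19 CPM in intact replicate 4. The sex-chromosome labels were thus borne out in all 12 mice. The summed level of 14 hepatocyte markers was 95200 to 149000 CPM in Intact_XX and 71500 to 107000 CPM in GDX_XX livers.

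Library make-up moved with the arms. The share of all reads that fell outside annotated genes was 3.47% at the lowest, 4.1% at the median and 6.2% at the highest in Intact_XX mice, and 8.52%, 9.33% and 10.1% in GDX_XX mice. Its mean was 4.45% ± 0.972 (SD, n = 6) in Intact_XX and 9.39% ± 0.56 (SD, n = 6) in GDX_XX livers, a difference of 4.94 percentage points (two-sided exact permutation test, p = 0.00216, the smallest that 6 against 6 mice can give). No mouse of an arm reached the range of the other. Reads on cytosolic ribosomal protein genes made up 0.689% to 2.79% of gene reads in Intact_XX libraries and 0.535% to 0.631% in GDX_XX libraries, and Intact_XX replicates 1, 2 and 6 held the largest shares (2.02%, 2.53% and 2.79%). Short transcripts stood lower and long ones higher after ovariectomy, with a median log2 fold change of -0.59 in the shortest quintile of genes and 0.39 in the longest. With offsets for transcript length and GC content the same medians were -0.06 and 0.10. The trend was present in ovariectomized XY- mice (-0.63 to 0.47) and in castrated XX;SryTg mice (-0.36 to 0.25) as well. Its part in the single-gene results was not tested. Of 130 called genes named by rule or chosen after their values were seen, 57 kept their call without Intact_XX replicates 1, 2 and 6. That setting leaves 3 intact mice, replicates 3, 4 and 5. Replicates 4 and 5 are those with high levels of interferon-stimulated genes, described below. With the offsets 90 of the 124 genes with a length and GC value kept their call. Counts of called list members are therefore given under these settings too, except for the sex-linked genes.

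**Figure D1:**
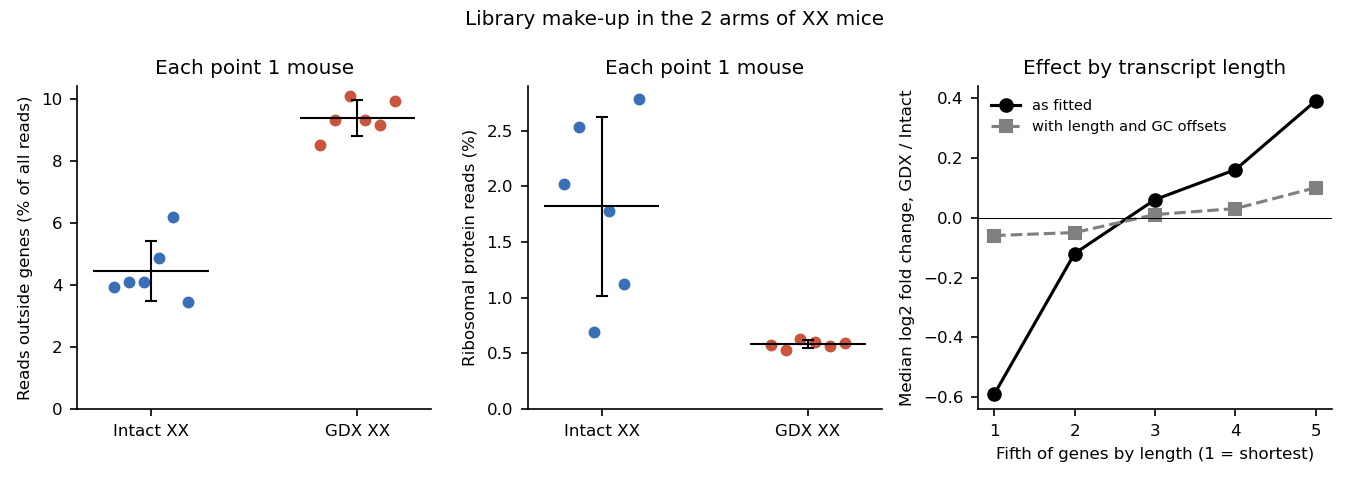
Library make-up in XX mice. Left and middle, percent of all reads outside genes and percent of gene reads on ribosomal protein genes, 1 point per mouse, with the mean and SD of 6 mice per arm; right, median log2 fold change (GDX over Intact) by quintile of transcript length, as fitted (black) and with length and GC offsets (grey). The shares outside genes do not overlap between the arms, and the slope from -0.59 to 0.39 flattens to -0.06 to 0.10 with the offsets.

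Across the liver transcriptome, ovariectomized XX mice differed from intact XX mice at a large part of the genes measured. Of 15414 genes tested, 8490 (55.1%) passed an adjusted p of 0.05 (edgeR quasi-likelihood test, Benjamini-Hochberg adjustment), 4084 (26.5%) higher and 4406 (28.6%) lower after ovariectomy. At least 2-fold differences were called for 2778 genes (18%), 966 higher (6.27%) and 1812 lower (11.8%). The excess of falls among these turned with library totals (1388 higher and 1297 lower), with 1 surrogate variable (646 and 451) and without Intact_XX replicates 1, 2 and 6 (550 and 402). In 1199 genes (7.78%) every GDX_XX mouse stood above every Intact_XX mouse, and in 1816 genes (11.8%) every GDX_XX mouse stood below, 3015 genes (19.6%) in all. The median log2 fold change over all genes tested was 0.03. With library totals in place of TMM scaling that median was 0.21 and 61.2% of the called genes were higher, against 48.1% with TMM. The number of calls was 2346 without Intact_XX replicates 1, 2 and 6, and 72 with the read share outside genes as a covariate, a covariate whose values do not overlap between the arms. These shares of called genes are the background for the gene lists described next. Folds given for single genes are estimates of the edgeR fit and need not equal the ratio of the medians printed beside them.

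Among the 12 lowest genes whose arms did not overlap, Cyp3a44 fell furthest and most of the others were ribosomal protein genes. Cyp3a44, a female-biased cytochrome P450, was at 2.55, 12.7 and 36.9 CPM (lowest, median and highest of 6 mice) in Intact_XX livers and at 0.302, 0.629 and 1.77 CPM in GDX_XX livers. Its log2 fold change was -4.24 (SE 0.55, adjusted p = 3.61e-07). Its arms did not overlap, as the choice required, and without Intact_XX replicates 1, 2 and 6 the log2 fold change was -3.39 (adjusted p = 7.65e-05). Of the 12 genes, 7 encode ribosomal proteins or their relatives (Rps25, Rps24, Rps27l, Rpl34, Rps12, Rpl22l1 and Rpl17), with log2 fold changes of -3.13 to -3.03. Over 73 ribosomal protein genes tested, a list added after the values were seen, 71 were lower and 0 higher, with a median of -1.84. Under the length and GC offsets 59 were lower and 3 higher, and with the read share outside genes as covariate 0 were called. Without Intact_XX replicates 1, 2 and 6 the lower calls numbered 65 and the higher ones 0. The remaining 4 genes were S100a8, a calcium-binding protein of neutrophils (log2 -3.60, and -1.56 with an adjusted p of 0.252 under the offsets), Gm8121, 1500012F01Rik and Gm10269.

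Among the 12 highest genes with non-overlapping arms were 4 genes of extracellular matrix, described with the stellate cell genes. Osbpl3, which encodes an oxysterol-binding protein relative at membrane contact sites, was at 2.59, 5.05 and 10.8 CPM in Intact_XX and at 24.4, 44.1 and 79.5 CPM in GDX_XX livers, an 8.28-fold rise (log2 3.05, SE 0.41, adjusted p = 5.84e-07). Pls1, an actin-bundling protein of epithelial brush borders, rose 8.55-fold from a median of 0.892 to 6.48 CPM. Fut2, a fucosyltransferase, rose 8.03-fold from 0.149 to 1.62 CPM, its intact level being near the detection floor. That all 6 ovariectomized mice stood above every intact mouse was a condition for the choice of these genes. Smpd3, neutral sphingomyelinase 2, rose 5.67-fold, and the orphan transporter Slc35f2 rose 6.7-fold. The other genes were Kbtbd11 (5.83-fold), Gm12750 (7.83-fold), Gm16291 (7.67-fold) and the matrix genes Col1a1, Svep1, Adamtsl2 and Lama2. All 12 of the highest genes also passed the test without Intact_XX replicates 1, 2 and 6.

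Of 6 receptors for steroid, prolactin and growth hormone signals that were tested, 2 (33.3%) were higher and 1 (16.7%) lower (median 0.22). Over all genes the shares were 26.5% and 28.6%. Esr1, estrogen receptor alpha, was at 21.9, 31.5 and 46.2 CPM in Intact_XX and 32.7, 44.2 and 63 CPM in GDX_XX livers, a 1.45-fold rise with overlapping arms (adjusted p = 0.00901). Ghr, the growth hormone receptor, fell by 0.31 on the log2 scale from a median of 804 to 599 CPM (adjusted p = 0.0218), and its estimate was 0.04 with length and GC offsets. None of the 3 calls of the list remained with the offsets or without Intact_XX replicates 1, 2 and 6. Prlr, the prolactin receptor, was at a median of 326 CPM before and 378 CPM after ovariectomy (log2 0.14, adjusted p = 0.579), and Nr3c1 (0.10) and Nr3c2 (0.31), the glucocorticoid and mineralocorticoid receptors, did not pass either. Esr2, Gper1 and Pgr, the other estrogen receptors and the progesterone receptor, were not tested because of low counts and reached at most 0.197 CPM in any of the 12 livers.

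Female-biased liver genes fell more often than they rose, and the falls lay in part of the list. Of 31 genes tested, 14 (45.2%) were lower and 2 (6.45%) higher, with a median log2 fold change of -0.55 beside 0.03 over all genes, and 15 were not called. Cyp2c69, a Cyp2c cytochrome, was at 190, 315 and 1030 CPM in Intact_XX and 23.6, 102 and 144 CPM in GDX_XX livers (log2 -2.38, SE 0.63, adjusted p = 0.00164). Its close relative Cyp2c40 went from a median of 147 to 53.5 CPM (log2 -1.90), and Cyp2a4, a steroid 15-alpha-hydroxylase, from 796 to 276 CPM (log2 -1.54). The arms of these 3 genes did not overlap. Hao2, a peroxisomal 2-hydroxy acid oxidase, was at 51.6, 108 and 234 CPM before and 21, 36.8 and 51 CPM after ovariectomy (log2 -1.78, adjusted p = 0.000349), also without overlap. The transporter gene Slc22a27 fell from a median of 106 to 41.7 CPM (log2 -1.49), again with every GDX_XX mouse below every Intact_XX mouse. Cyp2c40, Cyp2a4, Hao2 and Slc22a27 were chosen after their values were seen. The genes that rose were Fmo2, a flavin monooxygenase (1.94-fold), and Tox, an HMG-box transcription factor gene (1.66-fold).

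Steroid sulfotransferases of the Sult2a family, which sulfonate bile acids and hydroxysteroids, fell too, with a wide spread among intact mice. Sult2a1 was at 86.2, 714 and 1280 CPM in Intact_XX and 1.15, 37.6 and 157 CPM in GDX_XX livers (log2 -3.57, SE 1.07, adjusted p = 0.00476). Intact_XX replicates 1, 2 and 6 were at 1050, 1280 and 1130 CPM, and replicates 3, 4 and 5 at 180, 86.2 and 377 CPM. The high intact mice were those with the largest ribosomal protein read share, and without them the log2 fold change was -1.89 (adjusted p = 0.242). Sult2a2 (log2 -3.39), Sult2a3 (-3.50), Sult2a5 (-2.47) and Sult3a1, a sulfotransferase of amines (-2.74), passed with all 12 mice, and likewise missed the threshold without those 3 livers (adjusted p = 0.282 to 0.712). Members of the Sult2a, Cyp2c and Cyp3a clusters are near-identical copies, so that reads may be split among them. Without the 3 livers 2 of the 31 female-biased genes remained called lower, Cyp3a44 and Cyp2a4 (log2 -1.57, adjusted p = 0.0274), and 1 was called higher. With length and GC offsets 7 were lower and 4 higher. Over all genes, the fit without the 3 livers called 1261 of 16026 lower and 1085 higher. The fit with the offsets called 2940 of 13077 lower and 2864 higher. In both settings the share of the list called lower was close to that of all genes.

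A further set of female-biased genes did not pass the test after ovariectomy. Cux2, a female-specific repressor, was at 9.3, 26.1 and 42.2 CPM in Intact_XX and 10.8, 28.3 and 44.6 CPM in GDX_XX livers (log2 0.08, SE 0.45, adjusted p = 0.891). The secreted protein gene A1bg was at a median of 30.4 and 26.4 CPM (log2 -0.55, SE 0.51). Cyp2b13, a female-specific cytochrome, was at 297 and 481 CPM (log2 0.75, adjusted p = 0.0815). The arms of Cux2 and A1bg overlapped over most of their range and those of Cyp2b13 between 325 and 380 CPM. For A1bg and for Cyp2b13 (SE 0.37) changes of 2-fold or more lie within 2 standard errors of the estimate. Cyp2b13 passed with length and GC offsets (log2 0.99, adjusted p = 0.0268).

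Male-biased liver genes showed no shared direction. Of 28 tested, 6 (21.4%) were higher and 5 (17.9%) lower, with a median of 0.04. Bcl6, a male-biased repressor that acts on STAT5-bound sites, was at 7.29, 12.7 and 15.1 CPM in Intact_XX and 20.1, 24.7 and 62.5 CPM in GDX_XX livers, a 2.65-fold rise without overlap (log2 1.41, SE 0.33, adjusted p = 0.000569). It also passed without Intact_XX replicates 1, 2 and 6 (log2 1.27, adjusted p = 0.044). Cyp4a12a, the male-specific fatty acid omega-hydroxylase, was at 0.0711, 0.221 and 0.417 CPM before and 0.131, 1.29 and 8.43 CPM after ovariectomy (log2 3.67, SE 0.95, adjusted p = 0.00139). GDX_XX replicates 4 and 5 stood at 6.83 and 8.43 CPM while replicates 1 and 6 remained at 0.237 and 0.131 CPM. Cyp2d9, a male-biased steroid 16-alpha-hydroxylase gene chosen after its values were seen, rose 2.02-fold. C8a (log2 1.35), Cyp2f2 (1.21) and Egfr (1.05) were higher too. Of the major urinary protein genes in the list, Mup3 was lower, from a median of 5330 to 1390 CPM (log2 -2.18), and so was Mup1, from 1.91 to 0.448 CPM (log2 -2.11), whereas Mup20 (-0.48) and Mup21 (-0.45) did not pass. These genes are near-identical copies that can share reads. The estimates of Mup3 and Mup1 were -0.76 and -0.11 without Intact_XX replicates 1, 2 and 6 (adjusted p = 0.178 and 0.958), and with the offsets -0.53 and -0.63 (adjusted p = 0.0711 and 0.532). Gstp1, Nudt7 and Mup11 made up the other lower calls. Of the 28 genes 4 were higher and 0 lower without the 3 livers, 8 higher and 1 lower with the offsets, and 2 lower without Intact_XX replicate 6 alone. Cyp4a12a had an adjusted p of 0.0525 without the 3 livers.

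In the growth hormone, STAT5 and IGF1 axis, 3 of 14 genes tested (21.4%) were higher and 2 (14.3%) lower (median 0.11). Both shares were below those over all genes (26.5% and 28.6%). Igfbp2, a binding protein for insulin-like growth factors, was at 174, 209 and 389 CPM in Intact_XX and 40.2, 82.5 and 123 CPM in GDX_XX livers, a 2.9-fold fall without overlap (log2 -1.54, SE 0.34, adjusted p = 0.000226). The fall was -1.59 without Intact_XX replicates 1, 2 and 6 (adjusted p = 0.00877). Stat5a rose 1.53-fold (adjusted p = 0.00241) with overlapping arms, and its estimate without these mice was 0.27 (adjusted p = 0.294). The list then held 1 higher and 1 lower call. With the length and GC offsets it held 3 higher and 1 lower.

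Bcl6 and Sult3a1 belong to the male- and female-biased lists, and their changes went in opposite directions. Their promoters are printed as examples that hold the letters described next. They are the 250 bases before the annotated start in RefSeq (GRCm38.p6), in lower case with matches to the STAT-type letters TTCNNNGAA in capitals. Bcl6 promoter 2 (chr16:23981284-23981533, minus strand) held 3 matches, at 168, 122 and 88 bases before the start. The Sult3a1 promoter (chr10:33857472-33857721, plus strand) held 1, at 109 bases before the start. Bcl6 promoter 1, with 1 match, and the Cyp3a44 promoter, with 0, are not printed.
Bcl6 promoter 2: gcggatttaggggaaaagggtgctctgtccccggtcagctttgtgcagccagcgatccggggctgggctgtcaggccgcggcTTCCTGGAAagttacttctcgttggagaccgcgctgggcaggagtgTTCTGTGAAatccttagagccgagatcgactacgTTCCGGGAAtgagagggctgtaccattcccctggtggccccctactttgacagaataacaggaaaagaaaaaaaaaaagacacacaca
Sult3a1: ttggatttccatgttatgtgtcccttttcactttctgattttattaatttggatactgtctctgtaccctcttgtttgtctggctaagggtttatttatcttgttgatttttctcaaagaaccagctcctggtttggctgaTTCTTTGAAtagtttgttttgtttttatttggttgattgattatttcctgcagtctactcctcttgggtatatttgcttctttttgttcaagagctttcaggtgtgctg
These letters, which read the same on both strands, were present in 7.02% of the 32851 promoters in the table. Counted by gene, they were present in 8.13% of 27025 genes, in 4 of 24 female-biased genes with a promoter there (16.7%, A1bg, Prlr, Slc22a26 and Sult3a1) and in 3 of 22 male-biased genes (13.6%, Bcl6, C8a and Moxd1). The palindromic estrogen response element (GGTCA, any 3 bases, TGACC) was present in 0.0639% of promoters and in 0 of these windows of either list. A match is a description of the letters and not evidence of binding.

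**Figure D2:**
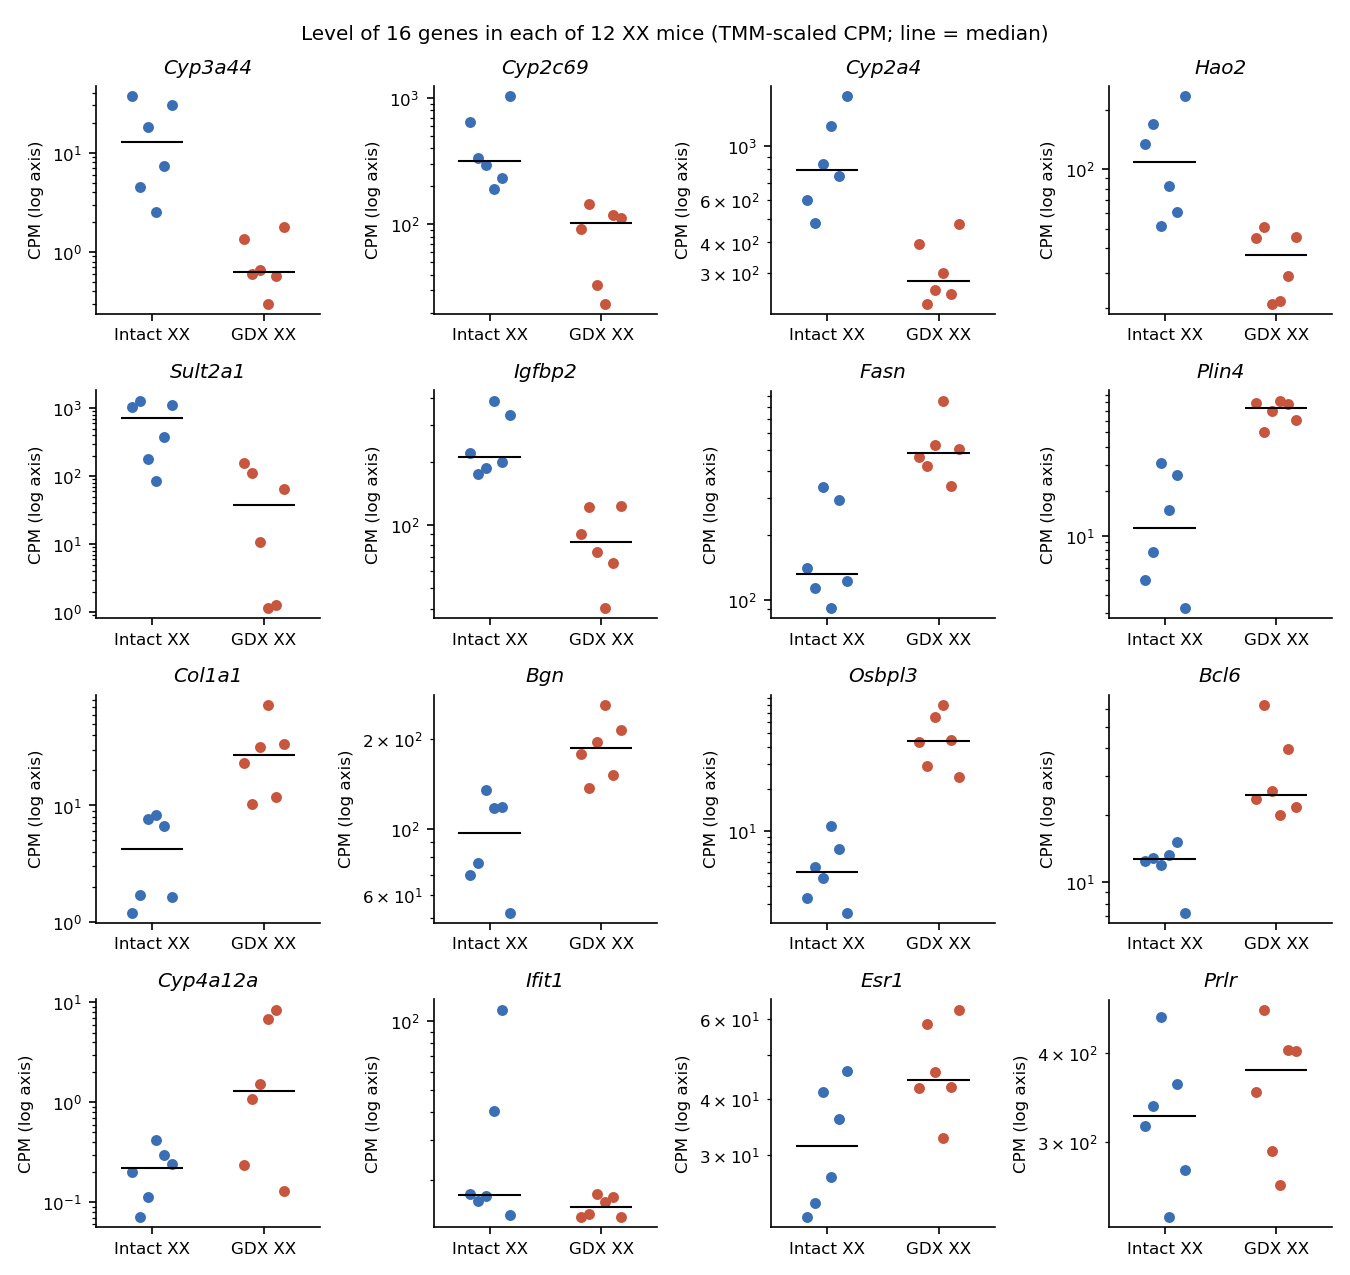
Levels of 16 genes in each of the 12 XX mice, in TMM-scaled CPM on log axes; each point is 1 mouse and the line is the median of 6. Cyp3a44, Cyp2c69, Cyp2a4, Hao2, Igfbp2, Fasn, Plin4, Col1a1, Bgn, Osbpl3 and Bcl6 show no overlap between Intact and GDX mice, while Sult2a1, Cyp4a12a, Ifit1, Esr1 and Prlr overlap.

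Genes of de novo lipogenesis were higher after ovariectomy more often than lower. Of 19 tested, 8 (42.1%) were higher and 2 (10.5%) lower, with a median log2 fold change of 0.42. Fasn, fatty acid synthase, was at 91.4, 131 and 335 CPM in Intact_XX and 341, 485 and 851 CPM in GDX_XX livers, a 2.84-fold rise (log2 1.51, SE 0.37, adjusted p = 0.000718). The arms did not overlap, though the highest intact liver (335 CPM) came close to the lowest ovariectomized one (341 CPM). Acaca, acetyl-CoA carboxylase 1, rose 2.09-fold from a median of 49.9 to 116 CPM and Acly, ATP-citrate lyase, 1.86-fold from 152 to 261 CPM, both without overlap and both chosen after their values were seen. Acacb, the mitochondrial-membrane carboxylase, rose 2.56-fold with overlap (24.9 to 207 against 169 to 252 CPM). Elovl6 (log2 0.72), Pklr (0.98), Fads2 (0.62) and Gpam (0.78) were higher as well. Nr1h3, which encodes the oxysterol receptor LXR-alpha, went the other way, from a median of 140 to 66.5 CPM without overlap (log2 -1.05, adjusted p = 8.94e-06), and so did malic enzyme Me1 (log2 -0.71). Without Intact_XX replicates 1, 2 and 6 the list held 2 higher and 0 lower calls, with a median of 0.35. Acly then passed (adjusted p = 0.0428), while Fasn, Acaca, Acacb, Nr1h3 and Me1 missed the threshold (adjusted p = 0.0523 to 0.293). With length and GC offsets 7 were higher and 2 lower. The estimate for Fasn was then 0.69 (adjusted p = 0.0358), and Acacb was not called (adjusted p = 0.0985).

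Pnpla3, which encodes a triglyceride lipase of lipid droplets and is the gene the study follows, was lowly expressed in these livers. It was at 0.217, 0.946 and 2.64 CPM in Intact_XX and at 0.294, 0.988 and 2.17 CPM in GDX_XX livers, here in CPM without TMM scaling. The means were 1.26 ± 0.965 CPM and 1.1 ± 0.763 CPM (SD, n = 6 each), a difference of -0.165 CPM (two-sided exact permutation test, p = 0.734). The ranges covered each other almost fully. The log2 fold change of the transcriptome-wide fit was -0.40 with a standard error of 0.62, so a 2-fold difference in either direction was not detectable at this depth and spread.

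Of 22 lipid droplet and lipid uptake genes tested, 6 (27.3%) were higher and 6 (27.3%) lower (median 0.07). Both shares were near those over all genes (26.5% and 28.6%). Plin4, a perilipin of adipocyte-type droplets, was at 3.24, 11.3 and 30.9 CPM in Intact_XX and 50.3, 73.5 and 81.6 CPM in GDX_XX livers, a 4.73-fold rise without overlap (adjusted p = 0.000301). Cidec, a droplet-fusion protein gene chosen after its values were seen, rose 3.15-fold from a median of 8.65 to 31.3 CPM. Its relative Cidea had at most 1 read in any Intact_XX library and reached 1.09 CPM in GDX_XX mice, with a median of 0.24 CPM close to the floor. Fabp2, the intestinal-type fatty acid binding protein, fell from a median of 760 to 178 CPM without overlap (log2 -2.09), and Hilpda, an inhibitor of adipose triglyceride lipase, fell 2.25-fold. The list held 0 higher calls and 1 lower without Intact_XX replicates 1, 2 and 6, and Plin4, Cidec, Cidea, Fabp2 and Hilpda missed the threshold (adjusted p = 0.0586 to 0.232). It held 2 higher calls without Intact_XX replicate 6 alone, and 7 higher and 2 lower with the offsets.

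Cholesterol synthesis and uptake genes were called in 1 direction, 5 of 21 higher (23.8%) and 0 lower, with a median of 0.48. Among the 5 were Lss, lanosterol synthase (1.89-fold), Dhcr7 (1.71-fold) and the regulator Srebf2 (log2 0.60). Lss was at 13.4, 18.6 and 43.9 CPM before and 31.2, 45.7 and 73.1 CPM after ovariectomy, with overlap. The share of genes called higher was below that over all genes (26.5%), and 0 were called without Intact_XX replicates 1, 2 and 6. With the offsets 3 were higher.

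Of 25 fatty acid oxidation genes, 6 (24%) were higher and 5 (20%) lower (median 0.10), beside 26.5% and 28.6% over all genes. Cpt1a, carnitine palmitoyltransferase 1, rose 1.71-fold from a median of 519 to 1060 CPM. Its arms did not overlap, and it also passed without Intact_XX replicates 1, 2 and 6 (adjusted p = 0.0225). The carnitine-acylcarnitine carrier Slc25a20 and the peroxisomal enzyme Ehhadh fell by 0.71 and 0.69 on the log2 scale. Without the 3 livers Ehhadh still passed (log2 -0.64, adjusted p = 0.00516) and Slc25a20 did not (log2 -0.15, adjusted p = 0.603), and the list held 2 higher calls and 1 lower. With the offsets it held 8 and 2.

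Among 21 bile acid genes 8 (38.1%) were higher and 3 (14.3%) lower (median 0.32), beside 26.5% and 28.6% over all genes. Without GDX_XX replicate 2 the higher ones numbered 5. Nr0b2, the repressor SHP, was at 3, 3.88 and 5.02 CPM in Intact_XX and 5.98, 9.92 and 16.3 CPM in GDX_XX livers, a 2.64-fold rise without overlap (adjusted p = 0.00106). Cyp7a1, the rate-limiting enzyme of bile acid synthesis, fell from a median of 806 to 355 CPM with overlap (log2 -1.07, adjusted p = 0.0123), and its estimate was -0.24 without Intact_XX replicates 1, 2 and 6. The exporter Abcc3 rose 1.91-fold, and the conjugating enzyme Baat fell by 0.86 on the log2 scale. The list held 1 higher call and 0 lower without Intact_XX replicates 1, 2 and 6, with Nr0b2 at an adjusted p of 0.0527, Abcc3 at 0.0914 and Baat at 0.857 (log2 -0.07). With the offsets 9 were higher and 0 lower.

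Apolipoprotein and lipoprotein genes held 5 higher (27.8%) and 4 lower (22.2%) calls of 18 (median 0.04), beside 26.5% and 28.6% over all genes. Apoa4 rose 3.54-fold from a median of 91.7 to 382 CPM with overlap, and the lipoprotein receptor gene Lrp1 rose 2.88-fold from 300 to 1100 CPM without overlap. Apoc1 (log2 -1.85) and Apoa2 (log2 -1.21), which encode small and very abundant apolipoproteins, fell without overlap. With length and GC offsets the estimate for Apoa2 was 0.12 and that for Lrp1 was 0.48, against -1.21 and 1.52 without them. With the offsets the list held 6 higher and 3 lower calls. In the fit without Intact_XX replicates 1, 2 and 6 the list held 2 higher and 2 lower calls, and Lrp1 and Apoc1 passed (adjusted p = 0.00645 and 0.0124) while Apoa4 and Apoa2 did not (adjusted p = 0.106 and 0.13).

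Genes of stellate cells and extracellular matrix had the highest median of the 29 lists. Of 20 tested, 10 (50%) were higher and 0 lower, with a median log2 fold change of 1.09, and in 7 the arms did not overlap. Col1a1, the alpha 1 chain of type I collagen, was at 1.2, 4.21 and 8.28 CPM in Intact_XX and 10.2, 27.4 and 72.6 CPM in GDX_XX livers, a 6.58-fold rise (log2 2.72, SE 0.58, adjusted p = 0.000174). Col1a2 rose 4.28-fold from a median of 6.78 to 29.2 CPM and Col3a1 3.37-fold from 21.1 to 58.4 CPM. Every ovariectomized liver held more of these 3 collagen transcripts than any intact liver. Bgn, the proteoglycan biglycan, was at 52.2, 96.8 and 135 CPM before and 137, 187 and 260 CPM after ovariectomy (2-fold, adjusted p = 8.75e-05). Mmp2 (log2 1.74), Col4a1 (1.38), Pdgfrb (1.37), Reln (1.30), Col6a1 (1.18) and Lum (0.74) rose too. Lrat (log2 -0.21) and Des (0.03), markers of quiescent and of all stellate cells, and Acta2 (0.81), a marker of their activated state, did not pass the test. Bgn and Col3a1 were chosen after their values were seen.

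Beyond the list, Svep1 (6.24-fold), Adamtsl2 (5.59-fold) and Lama2 (5.22-fold), all genes of secreted matrix proteins, were among the 12 highest genes with non-overlapping arms. With length and GC offsets 13 of the 20 list members were higher. Without Intact_XX replicates 1, 2 and 6 there were 3, with a median of 0.77, and Col1a1 (log2 2.02, adjusted p = 0.0456) and Col1a2 (log2 1.60, adjusted p = 0.0411) were among them. In bulk tissue more cells of a type and more RNA per cell cannot be told apart. Castrated XX;SryTg mice had 4 of the 20 (20%) called higher (median 0.54), close to the 18.4% of all genes called higher there. Ovariectomized XY- mice had 8 (40%) called higher (median 0.74), beside 30.3% of all genes.

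Interferon-stimulated genes were lower after ovariectomy as a group, and for most of them the difference rested on 2 intact mice. Of 23 tested, 15 (65.2%) were lower and 0 higher, with a median log2 fold change of -0.84. Isg15, a ubiquitin-like modifier, was at 6.97, 6.26, 4.17, 17.7, 22.8 and 7.37 CPM in Intact_XX replicates 1 to 6, and at 3.02 to 4.4 CPM in GDX_XX livers (log2 -1.56, adjusted p = 1.43e-05). Ifit1, which binds foreign RNA, was at 40.2 and 112 CPM in Intact_XX replicates 4 and 5, at 14.1 to 17.5 CPM in the other 4 intact livers and at 13.8 to 17.5 CPM in GDX_XX livers. Irf7, the transcription factor that amplifies interferon production, was at 83.9 and 91.2 CPM in the same 2 mice and at 18 to 31.1 CPM in the other 4. Outside replicates 4 and 5 the intact values of Ifit1 and Irf7 lay close to the ovariectomized ones. Without these 2 livers 3 of the 23 genes were lower and 2 higher, the median was -0.08, and Ifit1 had a log2 fold change of -0.08 (adjusted p = 0.743), whereas Isg15 still passed (log2 -0.74, adjusted p = 0.00639). Leaving out replicate 5 alone gave 8 lower calls. There were 15 lower calls with the offsets. The lower calls numbered 18 without Intact_XX replicates 1, 2 and 6, which leaves replicates 3, 4 and 5. As 2 of these 3 mice are the ones with high values, that fit cannot show whether the difference reaches beyond them. In ovariectomized XY- mice and in castrated XX;SryTg mice 1 gene was higher and 1 lower, with medians of 0.04 and -0.02. Ifit1 and Irf7 were chosen after their values were seen.

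Promoters of Isg15, Ifit1 and Ifit3 are shown because these genes moved together in the 2 intact livers. Letters of the interferon-stimulated response element (GAAA, any 2 bases, GAAA, on either strand) are in capitals in the 250 bases before the RefSeq start (GRCm38.p6). The Isg15 promoter (chr4:156200819-156201068, minus strand) held 3 overlapping matches that begin 78, 72 and 66 bases before the start.
Isg15: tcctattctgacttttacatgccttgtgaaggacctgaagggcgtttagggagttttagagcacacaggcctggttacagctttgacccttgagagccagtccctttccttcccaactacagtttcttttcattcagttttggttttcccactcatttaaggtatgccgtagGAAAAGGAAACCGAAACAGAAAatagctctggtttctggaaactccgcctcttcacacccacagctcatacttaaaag
Ifit1 (chr19:34640639-34640888, plus strand): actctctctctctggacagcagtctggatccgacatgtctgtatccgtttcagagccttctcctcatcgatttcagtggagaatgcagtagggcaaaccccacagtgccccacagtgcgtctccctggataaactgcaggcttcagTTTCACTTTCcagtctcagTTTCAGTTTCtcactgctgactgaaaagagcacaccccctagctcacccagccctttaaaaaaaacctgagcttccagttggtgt
Ifit3 (chr19:34583279-34583528, plus strand): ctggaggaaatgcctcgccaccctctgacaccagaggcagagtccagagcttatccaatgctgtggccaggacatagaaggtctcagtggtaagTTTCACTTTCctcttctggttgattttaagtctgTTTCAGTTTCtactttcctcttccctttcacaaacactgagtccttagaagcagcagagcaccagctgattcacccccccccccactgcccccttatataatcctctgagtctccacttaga
The Ifit1 and Ifit3 promoters held 2 matches each. These letters were present in 2.98% of all promoters of the same length in the table. Counted by gene, they were present in 3.46% of all genes there and in 11 of the 19 listed genes that have a promoter (57.9%, Cxcl10, Gbp2, Gbp3, Gbp7, Ifit1, Ifit3, Igtp, Isg15, Oas1a, Rsad2 and Stat2).

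**Figure D3:**
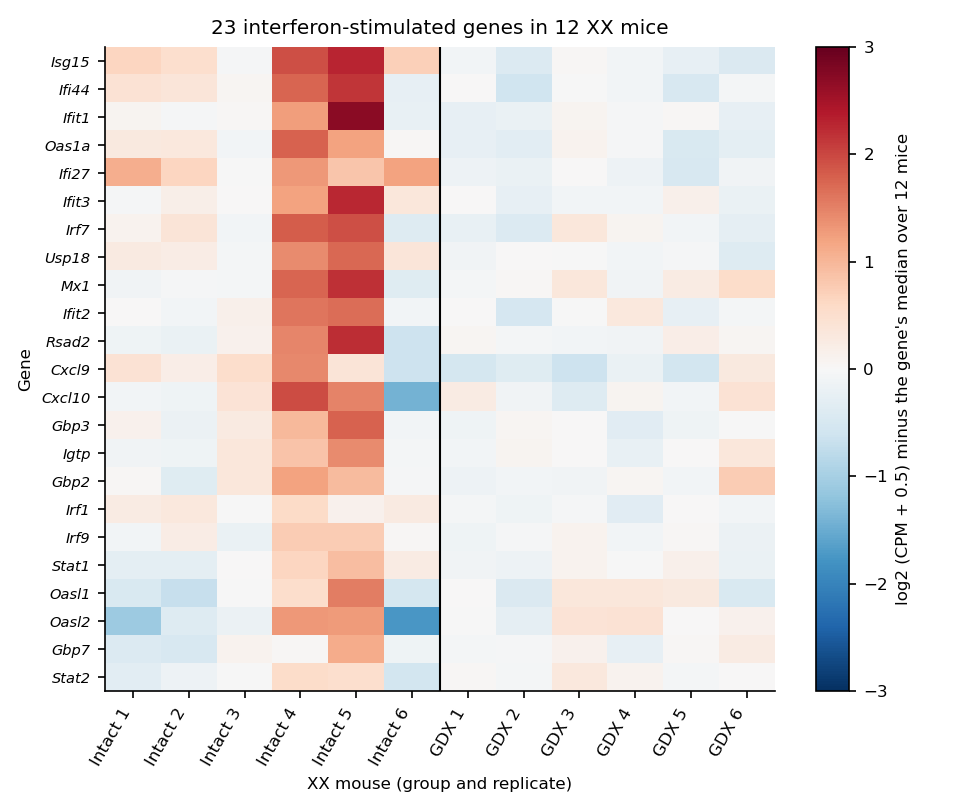
Heat map of 23 interferon-stimulated genes (rows) in the 12 XX mice (columns), coloured by log2 (CPM + 0.5) minus the median of the gene over the 12 mice. Intact replicates 4 and 5 are red over most rows, and most values of the 6 GDX mice and the other 4 intact mice lie closer to 0. Exceptions include Ifi27, at 113, 83 and 123 CPM in Intact replicates 1, 2 and 6 and 37.9 to 53.3 CPM in GDX mice. Another is Oasl2, at 2.83 CPM in Intact replicate 6 and 8.75 to 14.6 CPM in GDX mice.

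Immune and other cell-type markers were lower or mixed. Of 12 Kupffer cell markers 7 (58.3%) were lower and 0 higher (median -0.69). Vsig4, a complement receptor of resident macrophages, was at 45.6, 141 and 185 CPM in Intact_XX and 30.5, 41.1 and 50.1 CPM in GDX_XX livers (log2 -1.69, adjusted p = 0.00111), with only slight overlap. Timd4, a phosphatidylserine receptor, fell 3.15-fold, and Folr2, a folate receptor chosen after its values were seen, fell 2.83-fold without overlap. Clec4f (log2 -0.86), Cd5l (-0.69), C1qb (-0.68) and C1qc (-0.70) were lower, while Csf1r (0.11), Adgre1 (-0.34) and C1qa (-0.23) did not pass. The summed level of the 12 markers was 455 to 915 CPM before and 335 to 590 CPM after ovariectomy. There were 4 lower calls without GDX_XX replicate 2, 4 without Intact_XX replicates 4 and 5, and 2 without Intact_XX replicates 1, 2 and 6, where Folr2 passed (adjusted p = 0.019) and Vsig4 and Timd4 did not (0.136 and 0.0625). With the offsets 4 were lower.

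Markers of recruited macrophages showed 3 higher (21.4%) and 2 lower (14.3%) calls of 14 (median 0.23). Over all genes the shares were 26.5% higher and 28.6% lower. Gpnmb, a glycoprotein of lipid-laden macrophages, was at 0.162, 0.527 and 4.06 CPM in Intact_XX and 1.31, 6.65 and 21.1 CPM in GDX_XX livers (6.83-fold, adjusted p = 0.00394), and Itgax, integrin CD11c, rose 2.88-fold, whereas Cd9 and Ccl2 fell 2.29-fold and 2.23-fold. Without GDX_XX replicate 4 only 1 of the 14 was higher. There were 0 higher calls and 1 lower, Ccl2, without Intact_XX replicates 1, 2 and 6, with Gpnmb at an adjusted p of 0.148, and with the offsets 5 higher and 0 lower. Neutrophil markers had 3 of 13 lower (23.1%, below the share over all genes) and 0 higher. Their summed levels were 8.05 to 41.5 CPM and 5.24 to 13.5 CPM. The list was led by S100a8, at 0.971, 5.89 and 8.23 CPM before and 0.0592, 0.381 and 0.688 CPM after ovariectomy. Most GDX_XX values of S100a8 were near the detection floor. Without the 3 livers S100a8 had an adjusted p of 0.0938 and 0 of the 13 neutrophil markers were called, and with the offsets 1 was lower and S100a8 was not called. Lymphocyte markers had 5 of 16 lower (31.2%, near the share over all genes), among them Cd3d (log2 -2.80) and Gzma (log2 -2.29). The 1 higher was the immunoglobulin gene Ighm, whose call was lost without GDX_XX replicate 6. The lower lymphocyte calls numbered 3 without Intact_XX replicate 1 and 8 without Intact_XX replicate 3. With the offsets 3 were lower and 1 higher. Both Cd3d and Gzma passed without the 3 livers (adjusted p = 0.0328 and 0.018), where the list held 3 lower calls and 0 higher. MHC class II and dendritic cell markers had 1 of 11 higher (9.09%, below the share over all genes), Clec9a (1.55-fold). The higher calls numbered 3 without Intact_XX replicate 4, 0 without the 3 livers and 2 with the offsets.

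Endothelial markers had 3 of 12 higher (25%, beside 26.5% over all genes) and 1 lower. Higher were, among others, Vwf (2.29-fold) and Stab1 (1.56-fold, with a log2 estimate of -0.10 under the offsets). The lower one was the sinusoidal lectin gene Clec4g, at 33.1 to 68.2 CPM in Intact_XX and 17.3 to 31.1 CPM in GDX_XX livers (log2 -1.10, adjusted p = 2.49e-06). Without GDX_XX replicate 6, 1 endothelial marker was higher. Vwf and Clec4g were the 2 genes called without Intact_XX replicates 1, 2 and 6, and with the offsets 0 were higher and 2 lower. Biliary and keratin genes had 5 of 10 higher (median 0.76), such as osteopontin gene Spp1 (2.37-fold) and Krt7 (3.5-fold, at levels up to 1.03 CPM), and 1 lower, Krt23 (log2 -1.35). Without Intact_XX replicates 1, 2 and 6 none of these 10 was called. With the offsets 4 were higher and 1 lower. Among 21 cell cycle genes 10 (47.6%) were lower and 1 higher, with a median of -0.70. With the offsets 8 were lower and 0 higher. Ccnb1, cyclin B1, fell from a median of 0.746 to 0.176 CPM, Ccne2 from 5.09 to 2.2 CPM and Pcna, the replication clamp gene chosen after its values were seen, from 41.6 to 18.7 CPM, all without overlap. Mki67 (0.05) and Top2a (-0.14), markers of dividing cells, did not pass, and 5 of the 21 genes were lower without Intact_XX replicates 1, 2 and 6, Ccnb1 among them (adjusted p = 0.00464) but not Ccne2 or Pcna (0.328 and 0.12).

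**Figure D4:**
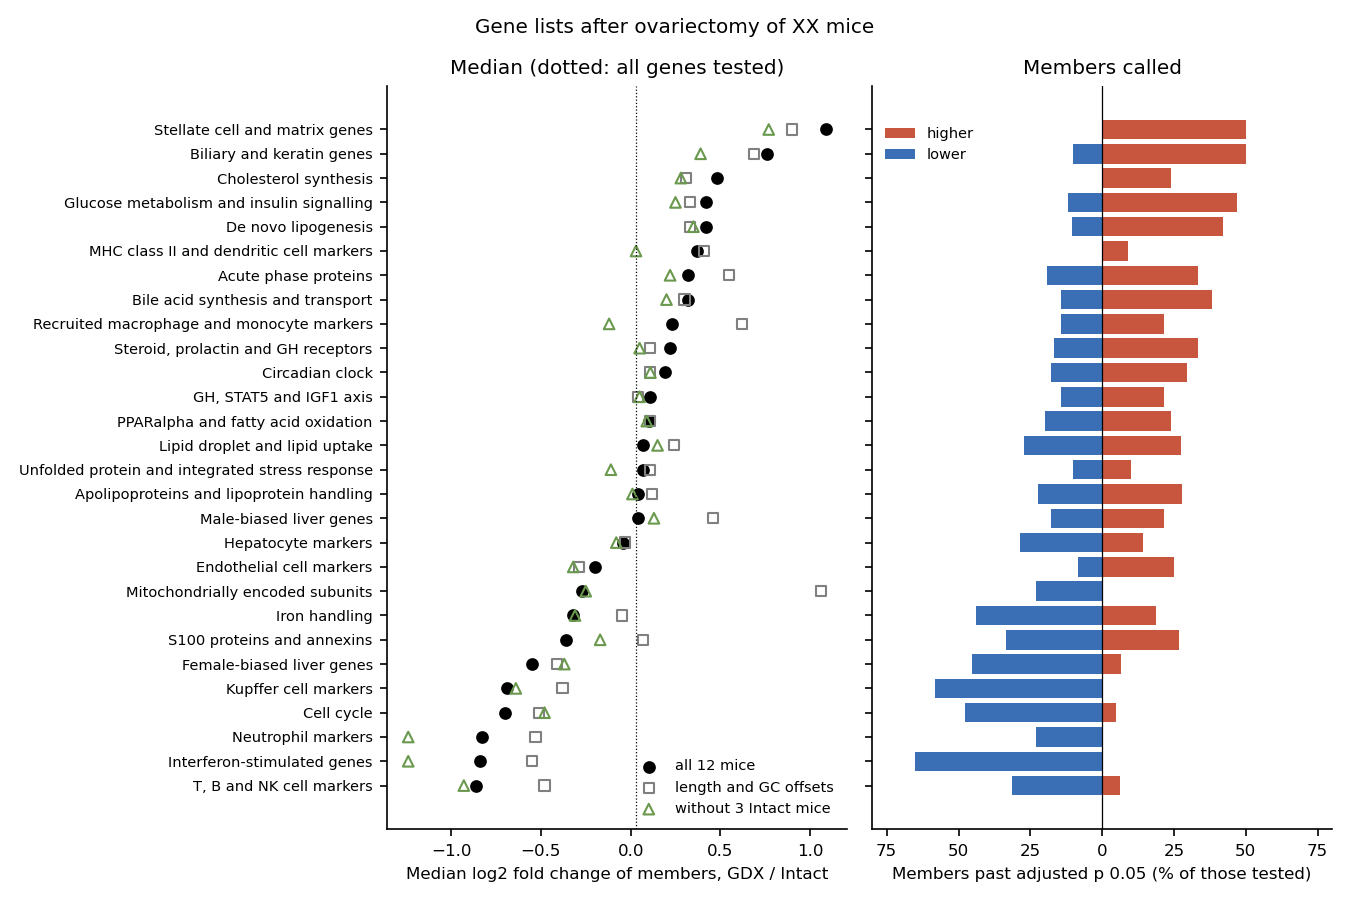
Left, median log2 fold change (GDX over Intact) of the members of 28 gene lists in XX mice, with all 12 mice (black), with length and GC offsets (grey squares) and without Intact_XX replicates 1, 2 and 6 (green triangles), beside the median over all genes (dotted, 0.03). Right, percent of members tested that passed an adjusted p of 0.05, higher to the right and lower to the left. Stellate cell and matrix genes have the highest median (1.09), and the interferon-stimulated list has the largest share of lower calls (65.2%).

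Set against castration in mice with the same XX chromosomes, female-biased genes were lower and male-biased genes higher in the effect of ovariectomy. The comparison asked which gonad's removal changed a gene, and its 2 effects share no mouse. The difference of the effects also holds the contrast between intact XX and intact XX;SryTg mice. For lists picked for sex bias, its direction therefore follows in part from the choice of the list and is no independent support. The effects differed at 144 of 15414 genes (0.934%, edgeR quasi-likelihood test of the difference, adjusted p under 0.05), 70 higher (0.454%) and 74 lower (0.48%) in ovariectomy minus castration. The count was 166 with the read share outside genes as covariate, 167 with length and GC offsets, 96 without Intact_XX replicates 1, 2 and 6, and 261 without Intact_XX replicate 3. Without intact XX;SryTg replicate 4, the mouse with Ddx3y reads, it was 126. Castration alone changed 5718 genes (37.1%), 18.4% higher and 18.7% lower.

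Of the 31 female-biased genes 19 differed, all 19 lower, and after castration 23 of the 31 were higher and 0 lower (median 2.18). Cyp2c69, which fell by 2.38 in XX mice, rose from a median of 1.23 to 53.4 CPM in XX;SryTg mice (log2 3.71, SE 0.70), a difference of -6.09 (adjusted p = 7.76e-05). Sult2a2 fell by 3.39 and rose by 5.13, a difference of -8.52 (adjusted p = 0.000523), and Sult2a1 differed by -8.19 (adjusted p = 0.00353). After both operations the levels of these genes lay in overlapping ranges, Cyp2c69 at 23.6 to 144 CPM in GDX_XX mice and 3.4 to 84.2 CPM in castrated XX;SryTg mice. For Cux2 (-4.95), A1bg (-5.33) and Cyp2b13 (-4.78) the difference came with a rise after castration of 5.03, 4.78 and 5.53 and no call after ovariectomy. Fmo2, which rose after both operations, differed by -1.61, and Prlr differed by -1.14 (adjusted p = 0.0376), with a rise of 1.27 after castration. Cyp3a44 differed by -4.99 with a fall after ovariectomy and an estimate of 0.75 (adjusted p = 0.524) after castration.

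Of the 28 male-biased genes 11 differed, all 11 higher, and after castration 22 were lower and 0 higher (median -1.76). Cyp4a12a fell from a median of 47 to 0.837 CPM on castration, a difference of 7.38 (adjusted p = 5.58e-05). Its level in GDX_XX livers, 0.131 to 8.43 CPM, lay below the 31.3 to 109 CPM of intact XX;SryTg mice with testes. Bcl6 rose in XX mice and fell by 0.87 on castration, a difference of 2.28 (adjusted p = 0.00542), and Cyp2d9 (2.60) followed the same form. Slco1a1 (4.89), Mup20 (4.01), Elovl3 (3.79) and Serpina1e (3.72) differed through their falls of 4.61, 4.49, 3.49 and 4.25 after castration, with no call after ovariectomy. Outside the sex-biased lists Osbpl3 (2.74), Slc35f2 (3.64), Kbtbd11 (3.04), Cidea (7.70), Cidec (3.30) and the hepcidin gene Hamp2 (-3.54) differed. For Cidea, which had at most 1 read in Intact_XX libraries, the estimate depends on the prior count of the fit and is no bound on the fold.

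**Figure D5:**
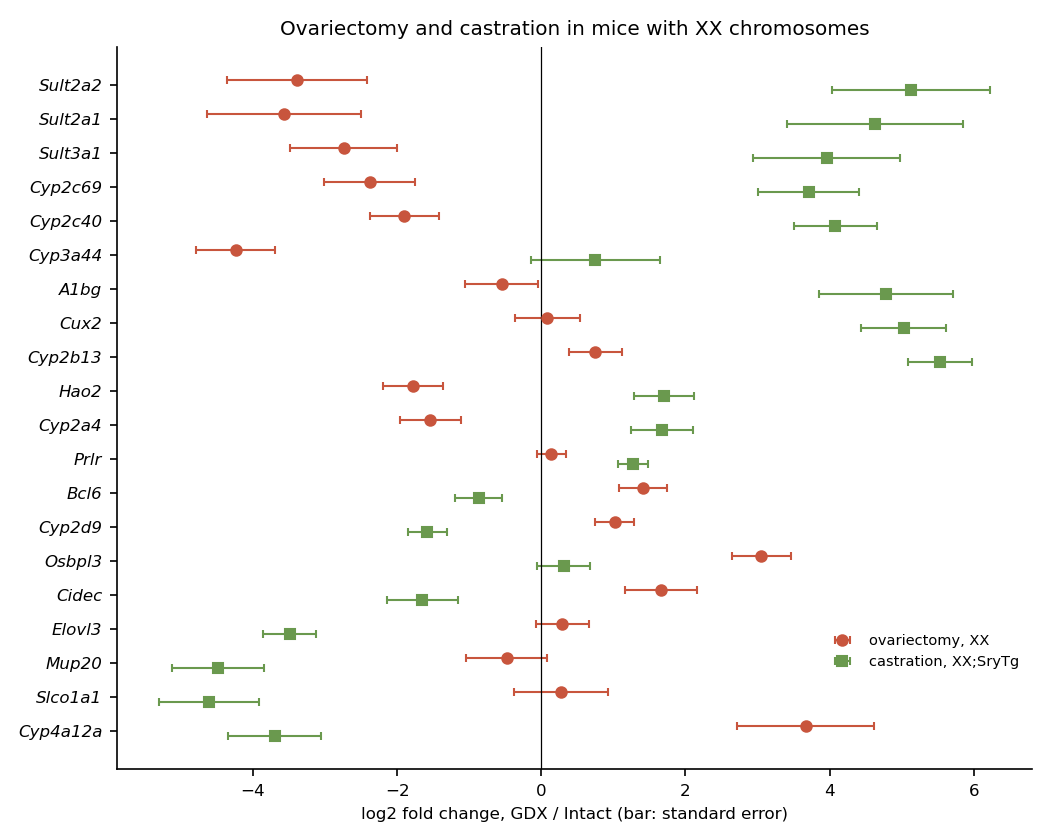
Log2 fold changes (GDX over Intact) of 20 genes after ovariectomy in XX mice (red circles) and after castration in XX;SryTg mice (green squares), with standard errors. Sult2a2, Sult2a1, Sult3a1, Cyp2c69, Cyp2c40, Hao2 and Cyp2a4 were called lower after ovariectomy and higher after castration, and Bcl6, Cyp2d9, Cidec and Cyp4a12a the reverse.

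Set against ovariectomy in XY- mice, whose ovaries develop beside a Y chromosome, no gene passed. The test of the difference called 0 of 15414 genes (0%, edgeR), with 637 genes at an unadjusted p under 0.05. DESeq2 called 8, all higher in XX mice (Gprc5b, Osbpl3, Gpc1, Slc35f2, Omd, Prtn3, Cyp4a12a and Cyp2d9). These 8 were named after their values were seen. Ovariectomy in XY- mice changed 9161 genes (59.4%), 30.3% higher and 29.2% lower. Cyp4a12a had a log2 fold change of -2.53 there and 3.67 in XX mice, and Osbpl3 0.72 and 3.05. Female-biased genes in XY- mice had 8 higher and 5 lower calls of 31 (median 0.29), beside 2 and 14 in XX mice. The difference of the 2 effects did not pass the test for any of the 31 genes. Without Intact_XX replicates 1, 2 and 6 the difference was called at 91 genes, 32 higher and 59 lower.

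Genes that depended on the type of gonad were also taken from other mice of the series, as those that differed at least 2-fold between intact XY- mice with ovaries and intact XY-;SryTg mice with testes, none of which enters the XX comparison. These were 698 ovary-associated (4.53%) and 227 testis-associated genes (1.47%) of 15414. Of the 698 ovary-associated genes 240 (34.4%) were lower and 32 (4.58%) higher after ovariectomy in XX mice, with a median of -0.50. Over all genes the shares were 28.6% lower and 26.5% higher. Of 227 testis-associated genes 60 (26.4%) were higher and 35 (15.4%) lower (median 0.27), a share of higher calls at the background of 26.5%. Without Intact_XX replicates 1, 2 and 6, 79 of the 698 were lower and 33 of the 227 higher. Over all 16026 genes of that fit 1261 were lower and 1085 higher, so both list shares were above those over all genes. With length and GC offsets 112 of 591 ovary-associated genes were lower and 49 of 169 testis-associated genes higher. Over all 13077 genes with offsets 2940 were lower and 2864 higher. The ovary-associated share was then below that over all genes and the testis-associated share above. Among the ovary-associated genes with the largest choice values Cyp2c69, Sult2a2 and Sult2a5 fell, and A1bg did not pass. Among the testis-associated genes with the largest choice values Cyp4a12a rose, Mup7, Mup11 and Mup14 fell by 2.52, 2.11 and 2.12, and Serpina4-ps1 (log2 -0.34) did not pass. Without the 3 livers none of Cyp2c69, Sult2a2, Sult2a5, Cyp4a12a, Mup7, Mup11 and Mup14 passed (adjusted p = 0.0525 to 0.888).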

How the data were processed

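Liver RNA of 48 FCG mice (6 in each of 8 groups) was sequenced from KAPA mRNA HyperPrep libraries. Per the labels, the authors aligned reads to GRCm39 with STAR 2.7.10a and deposited the raw read counts per gene, 55414 genes with 4 summary lines, which held 25.5% to 42.3% of reads and stayed out of library sizes and tests. Strand setting and annotation release are not given in the sources used here. Every table column matched 1 sample label. Symbols were found for 31020 gene identifiers (56%).

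Counts were fitted with edgeR 4.0.16 in R 4.3.3 (filterByExpr by group, TMM, robust quasi-likelihood) over all 48 libraries with a mean per group, and p-values were adjusted (Benjamini-Hochberg) over the 15414 genes kept, with calls at an adjusted p under 0.05. Differences of effects were contrasts in the same fit. Single values were compared with exact permutation tests (scipy 1.17.1). Alternatives were DESeq2 1.42.0, its size factors, library totals, a filter at 1 count over all mice or at 10 counts in each, 47 mice (without 1 intact XX;SryTg mouse that the study left out of a plot), only the compared groups, 1 surrogate variable (sva 3.50.0), the read share outside genes as covariate, length and GC offsets (13077 genes with both values, 84.8%), an adjusted p of 0.01, and each mouse left out. Leaving out Intact_XX replicates 1, 2 and 6, or 4 and 5, was chosen after seeing the data. The fit was tested on simulated counts. Where a length trend was simulated among unchanged genes, the fit called some of them without the length and GC offsets and none with them. Replicates differed by more than sampling noise (chi-square per gene 11.4 to 342), so none was a copy.

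The 29 gene lists and the comparisons were chosen with earlier results of these data known. Named genes were for called genes with non-overlapping arms and mean log2 CPM 0 or above, the 12 largest rises and 12 largest falls, the 2 highest and 2 lowest called members of each list, the 5 highest and 5 lowest called differences of effects, Pnpla3, the receptors and sex-linked genes, and the 5 most ovary- and testis-associated genes. Others were chosen after their values were seen, and so were called list members named only with a log2 fold change. Some genes that these choices cover are not reported here.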

Additional observations from a re-analysis of the deposited data

Results flagged for a closer look

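A single mouse stood far from the other 5 of its arm for 23 of 290 gene and arm combinations checked by Dixon's test, where chance gives about 1 in 20. In Intact_XX livers the highest value stood apart for Gm16291 (1 CPM, next 0.521), Ppp1r3c (54.7 CPM, next 34.5), Apoa4 (270 CPM, next 101), Gpnmb (4.06 CPM, next 1.05), Ccl2 (5.42 CPM, next 2.2), Krt7 (0.742 CPM, next 0.213), Serpina1e (36.1 CPM, next 7.94), A1bg (149 CPM, next 56.5), Ifit1 (112 CPM, next 40.2) and H19 (1.94 CPM, next 0.651). In GDX_XX livers it did so for Svep1 (4.71 CPM, next 2.17), Gm8121 (1.09 CPM, next 0.725), Fasn (851 CPM, next 531), Me1 (224 CPM, next 168), Lcn2 (309 CPM, next 72.7), Orm2 (217 CPM, next 45.9), Apcs (135 CPM, next 85.6), Hamp (642 CPM, next 277), Per3 (98.6 CPM, next 90), Ighm (78.9 CPM, next 23), Slco1a1 (20.6 CPM, next 7.48) and Serpina4-ps1 (2.38 CPM, next 0.919), and the lowest value did so for Ehhadh (324 CPM, next 419).

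The effect of ovariectomy in XX mice differed from that of castration in XX;SryTg mice, by the test of the difference itself, for 29 named genes. On the log2 scale, as ovariectomy minus castration, it was lower for Cyp3a44 (-4.99), Fmo2 (-1.61), Sult2a1 (-8.19), Hamp2 (-3.54), Sult2a5 (-8.71), Sult2a2 (-8.52), Sult2a3 (-8.08), Sult3a1 (-6.70), Prlr (-1.14), Cyp2c69 (-6.09), A1bg (-5.33), Cyp2c40 (-5.98), Cyp2a4 (-3.22), Hao2 (-3.48), Slc22a27 (-2.25), Cyp2b13 (-4.78) and Cux2 (-4.95). It was higher for Osbpl3 (2.74), Slc35f2 (3.64), Kbtbd11 (3.04), Cyp4a12a (7.38), Bcl6 (2.28), Cidea (7.70), Slco1a1 (4.89), Mup20 (4.01), Elovl3 (3.79), Serpina1e (3.72), Cidec (3.30) and Cyp2d9 (2.60). Without Intact_XX replicates 1, 2 and 6 the difference no longer passed for 10 of the 29.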

How the results depend on the processing

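Calls for the ovariectomy effect numbered 5538 with a surrogate variable, 72 with the read share outside genes as covariate and 2346 without Intact_XX replicates 1, 2 and 6, against 8490, and leaving out 1 mouse gave 7309 to 9246. With library totals 5233 of 8546 were higher. Calls of at least 2-fold numbered 1511 with at least 10 counts in every library, 1097 with the surrogate variable, 52 with the covariate, 902 with offsets and 952 without the 3 mice (1 mouse left out, 2380 to 3414). The difference from castration was called at 235 genes by DESeq2, 91 with no filter, 80 with at least 10 counts and 65 at an adjusted p of 0.01 (1 mouse left out, 97 to 261), and that from XY- mice at 8 by DESeq2, 2 with the surrogate variable, 2 with offsets and 91 without the 3 mice (0 to 2). Ovary-associated genes called lower numbered 113 with at least 10 counts, 144 with the surrogate variable, 4 with the covariate, 112 with offsets, 79 without the 3 mice and 458 when chosen by adjusted p alone (191 to 269), and testis-associated genes called higher 29, 0 with the covariate, 33 without the 3 mice and 402 by adjusted p alone (51 to 61). The Pnpla3 difference ran from -0.379 to 0.111 CPM and the read share difference from 4.74 to 5.29 percentage points with 1 mouse left out.

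Of 3446 alternative values for 146 named log2 fold changes, 3074 kept direction and call, 305 kept direction only, 7 gained a call and 60 changed sign. With the read share outside genes as covariate these log2 values turned positive: Cyp3a44 0.36, S100a8 0.35, Gm8121 0.27, Rps25 0.47, Rps24 0.54, Rps27l 0.38, Rpl34 0.48, Rps12 0.40, Rpl22l1 0.98, Rpl17 0.51, 1500012F01Rik 0.50, Gm10269 1.02, Ghr 0.16, Mup3 1.23, Mup1 1.16, Nr1h3 0.14, Me1 0.03, Fabp2 1.15, Hilpda 1.39, Slc25a20 0.96, Baat 0.96, Fbp1 0.61, Apoc1 0.19, Apoa2 0.79, Apcs 1.30, S100a9 0.73, Dnajb9 0.91, Atf4 0.02, Nr1d2 0.03, Ccne2 1.15, mt-Co3 0.07, Tdo2 1.08, Cd9 0.91, Sult2a2 0.32, Sult3a1 2.27, Cyp2c69 0.94, Mup7 1.41, Mup14 1.89, Mup11 0.11, Cyp2c40 0.68, Slc22a27 0.26 and Pcna 0.59. These turned negative: Gm16291 -0.45, Stat5a -0.43, Abcc3 -0.20, Lrp1 -0.26, Slc39a14 -0.40, Per2 -0.13, Per3 -0.11, Mcm2 -0.03, Itgax -0.34, Stab1 -1.02 and Xist -0.27. With length and GC offsets the values were Ghr 0.04, Apoa2 0.12, Apcs 0.00, Hamp 0.16, mt-Co2 0.71 and Stab1 -0.10, and without the 3 mice Fbp1 was 0.04. None of these 60 values passed the edgeR test in its setting, the lowest adjusted p being 0.137 for Slc25a20 with the covariate. The covariate's values do not overlap between the arms, so that fit can hardly separate it from ovariectomy. The cause of the changed signs was not tested. Of 1029 values for 29 differences from castration 983 kept direction and call, 46 lost the call and 0 changed sign. No paired analysis was possible because each mouse has its own identity and replicate numbers only follow accession order.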

Other observations

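Glucose and insulin signalling genes had 8 of 17 higher (47.1%) and 2 lower (11.8%), with a median log2 fold change of 0.42. Over all genes 26.5% were higher and 28.6% lower, the background for the lists below as well. With length and GC offsets 7 were higher and 1 lower. Ppp1r3b, a glycogen-targeting subunit of protein phosphatase 1, rose 1.77-fold from a median of 201 to 309 CPM and Pcx, pyruvate carboxylase, 1.72-fold from 373 to 679 CPM, both with overlapping arms, while Ppp1r3c and Fbp1 fell by 0.54 and 0.42, the estimate for Fbp1 being 0.04 without Intact_XX replicates 1, 2 and 6, where 3 of the list were higher and 0 lower. Acute phase genes had 7 of 21 higher (33.3%) and 4 lower (19%), with a median of 0.32. Lcn2, which binds bacterial siderophores, was at 6.07, 12.7 and 22.3 CPM in Intact_XX and 21.3, 55.3 and 309 CPM in GDX_XX livers (6.81-fold), and Orm2 rose 3.51-fold. GDX_XX replicate 3 held the highest value of Lcn2, and without it 4 of the list were called higher. There was 1 higher and 1 lower call without Intact_XX replicates 1, 2 and 6, Lcn2 and Orm2 missing the threshold (adjusted p = 0.0514 and 0.0959), and with length and GC offsets 13 and 1. Saa3 (log2 -2.51) and Apcs (-1.17, and 0.00 with length and GC offsets) fell. Iron genes had 3 of 16 higher (18.8%) and 7 lower (43.8%), with a median of -0.32. Among the higher ones were the transferrin receptor 2 gene Tfr2 (1.49-fold) and the zinc and iron importer gene Slc39a14 (1.45-fold). The lower ones included the hepcidin genes Hamp2 (4.36-fold lower) and Hamp (2.77-fold lower, with a log2 estimate of 0.16 under the offsets). Without the 3 intact livers 1 iron gene was higher and 2 lower, and Hamp2 was at -1.04 (adjusted p = 0.208). With the offsets 2 iron genes were higher and 2 lower.

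Clock genes had 5 of 17 higher (29.4%) and 3 lower (17.6%), with a median of 0.19, beside 26.5% and 28.6% over all genes. Per2 was at 11.9, 26.6 and 48.2 CPM in Intact_XX and 56.3, 61.6 and 71.6 CPM in GDX_XX livers, and Per3 rose 1.81-fold, whereas Nr1d2 fell by 1.34 and Bhlhe41 by 0.73. The arms of Per2, Per3 and Nr1d2 did not overlap, and 3 clock genes were higher and 3 lower without the 3 intact livers. With the offsets 3 were higher and 4 lower. The clock time of tissue collection is not given in the sources used here. Unfolded protein and stress response genes had 2 of 20 higher (10%, Hsp90b1 and Pdia4) and 2 lower (10%), Dnajb9 (log2 -1.26) and Atf4 (-0.62), a median of 0.07. Without the 3 livers 0 were higher and 1 lower, Atf4. With the offsets 4 were higher and 2 lower. S100 proteins and annexins had 4 of 15 higher (26.7%), among them Anxa6 (1.69-fold) and Anxa5 (1.6-fold), and 5 lower (33.3%), with a median of -0.36. Without the 3 livers 2 were higher and 0 lower, and with the offsets 4 and 0. Of 13 mitochondrially encoded genes 3 (23.1%) were lower, among them mt-Co3 (log2 -1.62) and mt-Co2 (-0.91, and 0.71 with the offsets). With length and GC offsets 9 were higher and 0 lower. Without the 3 livers 0 were higher and 1 lower, and without Intact_XX replicate 1 alone only 1 was lower. Hepatocyte markers had 2 of 14 higher (14.3%), among them Cps1, and 4 lower (28.6%), including Tdo2 (log2 -1.08) and Apoa2. Without the 3 livers 0 were higher and 1 lower, and with the offsets 0 and 3. Of the 5 sex-linked genes Xist was higher, at a log2 fold change of 1.09, and 0.63 without the 3 livers (adjusted p = 0.274).

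Genes chosen after their values were seen include the nuclear long noncoding RNA Malat1, at 301 to 458 CPM in Intact_XX and 1430 to 2220 CPM in GDX_XX livers (log2 2.38), with the same rise after castration (2.40). The imprinted fetal transcript H19 was at 0.266, 0.632 and 1.94 CPM before and 0.654, 11.9 and 61.7 CPM after ovariectomy (log2 4.82, adjusted p = 5.19e-05 by edgeR), with 5 of 6 ovariectomized mice above every intact mouse.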
